A study of Homo sapiens with 11 samples.

Results

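Complement is a cascade of blood and tissue proteins, and 9 of its genes were followed here in 2 human prostate cancer cell lines, out of 28395 genes listed. They were taken by gene symbol as components of the cascade (C1R, C1S, C3 and CFB), soluble regulators (SERPING1 and CFI) and membrane regulators (CD46, CD55 and CD59). PC3 and DU145 cells were each transduced with a lentivirus carrying the sialyltransferase ST6GAL1 or with a Lenti-ORF negative control lentivirus, and RNA-Seq was carried out on the stable populations. Counts are given for 3 PC3 control, 3 PC3 overexpression, 3 DU145 control and 2 DU145 overexpression libraries, the last numbered replicates 2 and 3. The sources used here state biological repeats, and do not say whether the repeats of a group came from separate transductions, so the p-values measure the spread between these libraries.

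The classical pathway starts when C1q binds a target and the serine proteases C1r and C1s are activated. Cleavage of C3 is the step at which the classical, lectin and alternative pathways meet, and factor B provides the protease of the alternative pathway C3 convertase. Host cells are shielded by C1 inhibitor (the product of SERPING1), by factor I, which cleaves C3b and C4b with the help of cofactors, and by membrane proteins such as CD46, CD55 and CD59. The liver secretes most circulating complement, and epithelial cells and many tumour cell lines also make components and regulators. ST6GAL1 adds alpha2-6 linked sialic acid to N-glycans.

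C1R and C1S are neighbours on chromosome 12 of GRCh38, C1S at chr12:7060718-7071032 and C1R at chr12:7080219-7092445, with a gap of 9186 bases between them. CD55 (chr1:207321678-207360966) and CD46 (chr1:207752038-207795516) both lie in the regulator cluster of chromosome 1. CD59 is at chr11:33703010-33736479 and overlaps the coding gene C11orf91, which took 101 counts over all PC3 and 49 over all DU145 libraries. Promoter windows from RefSeq (GRCh38.p14, 250 bases before to 50 after each annotated start) were matched for 6 of the 9 genes, with C1S, C3 and SERPING1 without an entry. The bases upstream of the outermost start are printed for C1R, CD55 and CD59, which had an adjusted p under 0.05 towards higher expression in both lines, and for CD46, whose change differed between the lines. They are read 5′ to 3′ along the gene, from chr12:7092446-7092695 (minus strand), chr1:207321428-207321677 (plus strand), chr11:33736480-33736729 (minus strand) and chr1:207751788-207752037 (plus strand), with motif matches in capitals.
C1R: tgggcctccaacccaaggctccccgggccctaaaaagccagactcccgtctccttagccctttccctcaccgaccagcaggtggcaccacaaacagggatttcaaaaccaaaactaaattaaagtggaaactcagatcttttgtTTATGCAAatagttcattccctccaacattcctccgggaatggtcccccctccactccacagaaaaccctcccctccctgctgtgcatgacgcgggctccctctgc
CD55: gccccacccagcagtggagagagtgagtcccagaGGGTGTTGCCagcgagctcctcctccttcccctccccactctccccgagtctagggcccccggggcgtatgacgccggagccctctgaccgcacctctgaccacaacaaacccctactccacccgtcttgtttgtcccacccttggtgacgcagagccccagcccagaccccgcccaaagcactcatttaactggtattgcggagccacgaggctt
CD59: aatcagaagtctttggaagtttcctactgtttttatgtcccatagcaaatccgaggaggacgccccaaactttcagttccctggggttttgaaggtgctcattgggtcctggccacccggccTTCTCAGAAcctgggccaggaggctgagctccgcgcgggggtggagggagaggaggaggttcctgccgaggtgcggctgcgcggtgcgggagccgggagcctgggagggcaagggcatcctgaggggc
CD46: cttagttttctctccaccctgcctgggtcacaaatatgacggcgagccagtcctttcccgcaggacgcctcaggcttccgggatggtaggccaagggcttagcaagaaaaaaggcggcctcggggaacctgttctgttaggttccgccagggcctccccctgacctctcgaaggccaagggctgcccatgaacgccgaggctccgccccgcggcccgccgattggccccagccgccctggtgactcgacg

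The capitals mark matches on either strand to 4 short motifs: an interferon-stimulated response element (GAAA, any 2 bases, GAAA), a gamma-activated site (TTC, any 3 bases, GAA), an NF-kB site (GGG, any 2 bases, TT, any base, CC) and a C/EBP site (TTGC, any 2 bases, AA). Over all 35116 promoter windows of 300 bases, these were found in 3.57%, 7.66%, 5.68% and 10.5%, respectively. The C1R window held 1 C/EBP match, the CD55 window 1 NF-kB match and the CD59 window 1 gamma-activated site match, and no matches overlapped in these windows. The CD46 window held none of the 4 motifs. Windows at other annotated starts of C1R and CD59 are not printed. They held further matches, to the C/EBP and gamma-activated site motifs in C1R and to the C/EBP motif in CD59. A match describes the letters of the window and does not show that a factor binds there.

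ST6GAL1 checked the labels. It was read at 2.97, 2.09 and 3.07 TMM-normalized CPM (counts scaled to a common library size) in the PC3 control libraries and at 33.4, 31.8 and 32.6 in the overexpression libraries, and at 14.2, 13.0 and 11.3 against 347.8 and 298.0 in DU145. Its log2 fold change was 3.58 in PC3 and 4.65 in DU145 (adjusted p of 1.37e-28 and 1.48e-11, edgeR's quasi-likelihood test). Counts on genes totalled 13194485 to 18201359 per library, where a count of 3, taken as the floor, is 0.165 to 0.227 CPM. Such floors and the counting intervals given below cover counting error only. Between replicates, the chi-square of the counts per degree of freedom was 1.39 to 5.46 in 9 pairs and 13.3 between the 2 DU145 overexpression libraries, so the widest spread lies behind the DU145 changes. A gene was called where its adjusted p (Benjamini-Hochberg, over all tested genes) was under 0.05 and its log2 fold change exceeded 0.58 in size. In bulk RNA, a change in how many cells express a gene and a change in RNA per cell cannot be told apart.

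Markers of cell types were read in CPM. The 5 epithelial markers were detected in every group, and their sum was 864 to 898 in the PC3 controls and 891 to 900 with overexpression, against 1300 to 1340 and 1040 to 1180 in DU145. The epithelial sum was thus lower with overexpression in DU145, without overlap. There CDH1 was higher (97.3 to 105.2 against 118.7 to 122.2), and EPCAM, KRT8, KRT18 and KRT19 were lower. In PC3, CDH1 was at 8.85 to 9.65 against 23.0 to 24.3. EPCAM and KRT19 were also higher with overexpression in PC3, KRT8 was lower and KRT18 overlapped. The 6 hepatocyte markers summed to 13.7 to 17.7 in the DU145 controls and 11.7 to 14.1 with overexpression, with SERPINA1 at 2.16 to 2.45 against 7.54 to 8.83, FGB at 11.5 to 15.1 against 3.91 to 4.71 and APOB at 0, and to under 0.5 in every PC3 library. The 6 fibroblast markers summed to 29.0 to 30.9 in the PC3 controls and 30.9 to 36.3 with overexpression, with COL3A1 at 3.73 to 3.98 against 12.5 to 16.9 and COL1A1 at 24.5 to 26.9 against 18.1 to 18.8, and to 5.22 to 7.33 and 3.80 to 7.09 in DU145. Single markers of these lists thus moved in either direction. The 7 leukocyte markers, mostly CD68, summed to 20.2 to 22.5 and 20.6 to 22.3 in PC3 and to 56.0 to 62.0 and 54.5 to 57.7 in DU145, with CD3E at 0. The 5 luminal prostate markers summed to 13.3 to 15.1 and 14.4 to 15.1 in PC3 and to 19.1 to 20.7 and 22.1 to 24.5 in DU145, with KLK3 and KLK2 at 0 in both lines. The part of these markers in the changes of the complement genes was not tested.

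With ST6GAL1 overexpression, C1R and C1S were called higher in both lines and C3 was called higher in DU145, the line in which it could be tested. CD55 and CD59 were higher by smaller amounts in both lines, CD46 was higher in DU145, and SERPING1 did not pass the test. In PC3, 5 of the 9 genes passed the expression filter, and 2 were called, both higher, against 3.61% of all tested genes called higher. At an adjusted p under 0.05 alone the number was 4, all higher, against 18.8% of all tested genes. In DU145, 7 passed the filter, of which 3 were called higher (4.33% of all tested genes) and 6 were higher at an adjusted p under 0.05 alone (10.7%). The median log2 fold change of the genes that passed was 0.50 in each line, against 0.00 for all tested genes. The genes tested in each line also had counts above the filter in its controls, the lowest being 78 (C1S, PC3) and 54 (C3, DU145). Genes under the filter are left out, so these counts and medians describe the tested genes only.

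**Figure D1:**
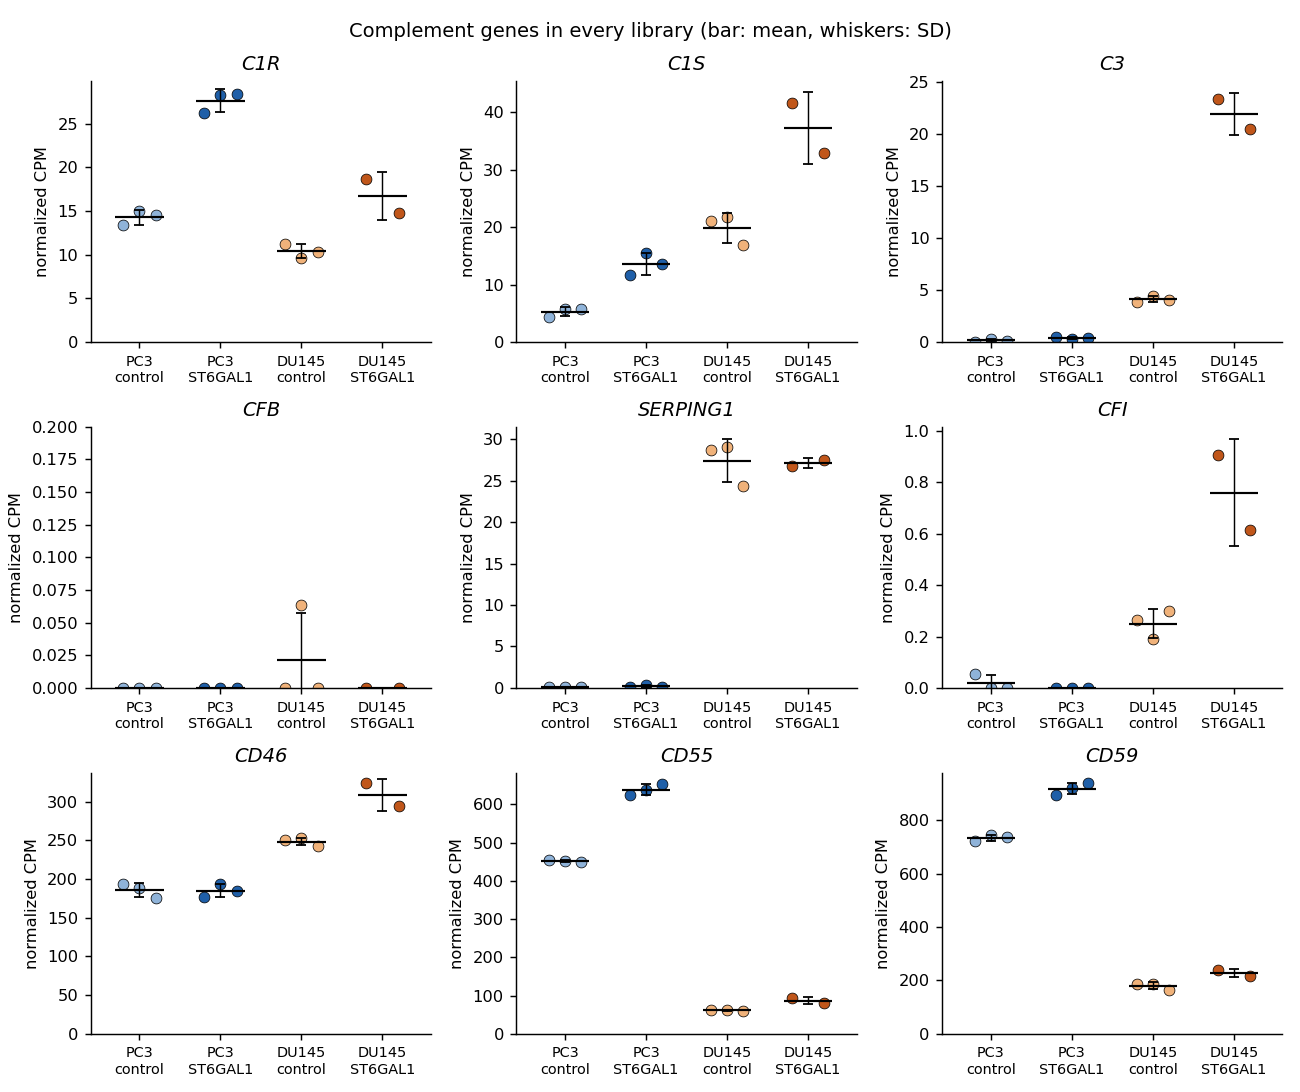
Normalized CPM (vertical axis, linear from 0, a separate scale for each gene) of the 9 complement genes in every library of the 4 groups on the horizontal axis. Points are libraries, horizontal bars are means and whiskers are SD (n = 3, and n = 2 for DU145 with ST6GAL1). The overexpression libraries of C1R, C1S, CD55 and CD59 lie above all control libraries of their line, and CFB has a single count in 1 library. The share of all genes without overlap is not given, so a lack of overlap, here or in the text, describes these libraries only.

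C1R, the protease that activates C1s within the C1 complex, was read at 13.4, 15.0 and 14.5 normalized CPM in the PC3 control libraries and at 26.2, 28.3 and 28.5 in the overexpression libraries. The groups did not overlap. The mean rose from 14.3 ± 0.844 to 27.7 ± 1.27 (SD, n = 3 each), and the log2 fold change was 0.96 (SE 0.0721, adjusted p = 2.44e-14, edgeR). In DU145, C1R was read at 11.3, 9.60 and 10.4 normalized CPM in the control libraries and at 18.6 and 14.8 in the overexpression libraries. Both overexpression libraries exceeded every control, and they differed from each other by more than the whole range of the controls. The log2 fold change was 0.68 (SE 0.140, adjusted p = 0.00329, edgeR). This call was lost without DU145 control replicate 2 (0.61, adjusted p = 0.0565) and, by the fold threshold, without DU145 overexpression replicate 2 (0.50, adjusted p = 0.0163).

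C1S, the protease that cleaves C4 and C2, was read at 4.37, 5.71 and 5.75 normalized CPM in the PC3 controls and at 11.7, 15.5 and 13.6 with overexpression. Every overexpression library exceeded every control, and the log2 fold change was 1.39 (SE 0.116, adjusted p = 5.24e-13, edgeR). In DU145 it was read at 21.0, 21.8 and 16.9 in the controls and at 41.7 and 32.9 with overexpression. The mean rose from 19.9 ± 2.61 in 3 control libraries to 37.3 ± 6.22 in 2 overexpression libraries (mean ± SD), and the log2 fold change was 0.90 (SE 0.134, adjusted p = 0.000578, edgeR). The 50 tested genes nearest to C1S, 25 on either side, had a median log2 fold change of 0.06 in PC3 and -0.02 in DU145, both well below its own change. The level of C1R relative to C1S, each per kb of exon, was 3.61 to 4.38 in the PC3 controls, 2.60 to 3.19 in the PC3 overexpression libraries, 0.630 to 0.875 in the DU145 controls and 0.639 and 0.644 in DU145 with overexpression. The overexpression ratios lay below the control range in PC3 and inside it in DU145.

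C3, the central protein of the cascade, was read at 3.89, 4.48 and 4.03 normalized CPM in the DU145 controls and at 23.4 and 20.6 in the overexpression libraries. The groups lay far apart relative to their spread. The mean rose 5.31-fold, from 4.13 ± 0.312 in 3 control libraries to 22.0 ± 1.98 in 2 overexpression libraries (mean ± SD), and the log2 fold change was 2.40 (SE 0.140, adjusted p = 7.50e-08, edgeR). Fits that dropped single libraries gave 2.30 to 2.50. Its 50 tested neighbours on chromosome 19 had a median of -0.22, with 9 of them higher. In PC3 the counts of C3 (chr19:6677704-6720650) were 1, 5 and 2 in the controls and 7, 6 and 7 with overexpression, under the filter. The summed counts gave a ratio of 2.52 (exact 95% counting interval 1.06 to 6.61), and without the filter the log2 fold change was 1.29 (adjusted p = 0.136, edgeR). A change of C3 in PC3 did not pass the test at this depth.

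CFB, the gene of factor B, at chr6:31946095-31952084, was listed at 0 in all 6 PC3 libraries and had a single count in 1 DU145 control library. Other genes of that part of chromosome 6 were at 0 or nearly so, including genes that every cell uses. LSM2, HSPA1A and DDX39B totalled 0 counts over all 11 libraries, and TUBB totalled 7. Between TNF and NOTCH4, 33 of 53 coding genes were at 0 in every library and 45 had fewer than 10 counts in all, against 23.1% of coding genes elsewhere with fewer than 10. The complement genes C2, C4A and C4B, in the same stretch, were also listed at 0. For these genes the tables give no level, and no statement on expression is made.

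SERPING1 encodes C1 inhibitor, which inactivates C1r and C1s. In DU145 it was read at 28.7, 29.0 and 24.4 normalized CPM in the controls and at 26.7 and 27.5 with overexpression. The groups overlapped, and the log2 fold change was -0.02 (95% interval -0.25 to 0.22, adjusted p = 0.936, edgeR). In PC3 (chr11:57597685-57614848) the counts were 1, 1 and 2 against 1, 6 and 2, at or near the floor, and SERPING1 was not tested there. In DU145, the upper bound of this interval lay below the changes of both C1 proteases.

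CFI, the gene of factor I, at chr4:109730982-109801999, had counts of 4, 3 and 4 in the DU145 controls and 14 and 11 in the overexpression libraries, under the filter. The overexpression counts exceeded every control count, and the summed counts gave a ratio of 3.02 (exact 95% counting interval 1.43 to 6.80). Without the filter the log2 fold change was 1.56 (adjusted p = 0.0531, edgeR). Its log2 fold change was 1.84 without DU145 overexpression replicate 3. CFI passed the filter there only through the 1 overexpression library left, where it was high. In PC3 a single count was recorded, in control replicate 1.

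CD55, or decay-accelerating factor, dissociates the C3 convertases. It was read at 455, 453 and 449 normalized CPM in the PC3 controls and at 625, 638 and 654 with overexpression. The 2 groups were separated by many times the spread of either, and the mean rose 1.41-fold, from 452 ± 3.22 to 639 ± 14.2 (SD, n = 3 each), and the log2 fold change was 0.50 (SE 0.0249, adjusted p = 3.82e-20, edgeR). In DU145 it was read at 61.1, 62.1 and 60.6 against 93.3 and 80.0, again without overlap, and the log2 fold change was likewise 0.50 (SE 0.0855, adjusted p = 0.000941, edgeR). Both changes were under the fold threshold, which the DU145 change passed at 0.61 without DU145 overexpression replicate 3. In PC3, the 50 tested neighbours of CD55 had a median of -0.06.

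CD59, or protectin, blocks the assembly of the membrane attack complex. In PC3 it was read at 723, 745 and 738 normalized CPM in the controls and at 896, 921 and 938 with overexpression, with no overlap. The log2 fold change was 0.32 (SE 0.0241, adjusted p = 2.14e-14, edgeR). In DU145 the values were 188, 188 and 164 against 238 and 217, also without overlap, with a log2 fold change of 0.34 (SE 0.0820, adjusted p = 0.00988, edgeR). The adjusted p in DU145 was 0.0528 without DU145 control replicate 2 and 0.0566 without DU145 control replicate 3.

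CD46, or membrane cofactor protein, helps factor I to cleave C3b and C4b. In PC3 it was read at 194, 189 and 176 normalized CPM in the controls and at 177, 194 and 185 with overexpression. The groups overlapped almost completely, with a log2 fold change of -0.01 (95% interval -0.08 to 0.06, adjusted p = 0.896, edgeR) that changed sign when single libraries were left out. In DU145 it was read at 250.0, 253 and 243 against 324 and 294, without overlap. The log2 fold change was 0.31 there (SE 0.0741, adjusted p = 0.00848, edgeR), under the fold threshold. The adjusted p was 0.0616 without DU145 control replicate 1 and 0.0524 without DU145 control replicate 2.

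Summed over CD46, CD55 and CD59, the membrane regulators took 1362 to 1386 normalized CPM in the PC3 controls and 1698 to 1777 in the overexpression libraries. In DU145 the sums were 468.5 to 502.8 and 591.2 and 655.5. The ranges did not overlap in either line, and the sums with overexpression in DU145 stayed below those of the PC3 controls.

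**Figure D2:**
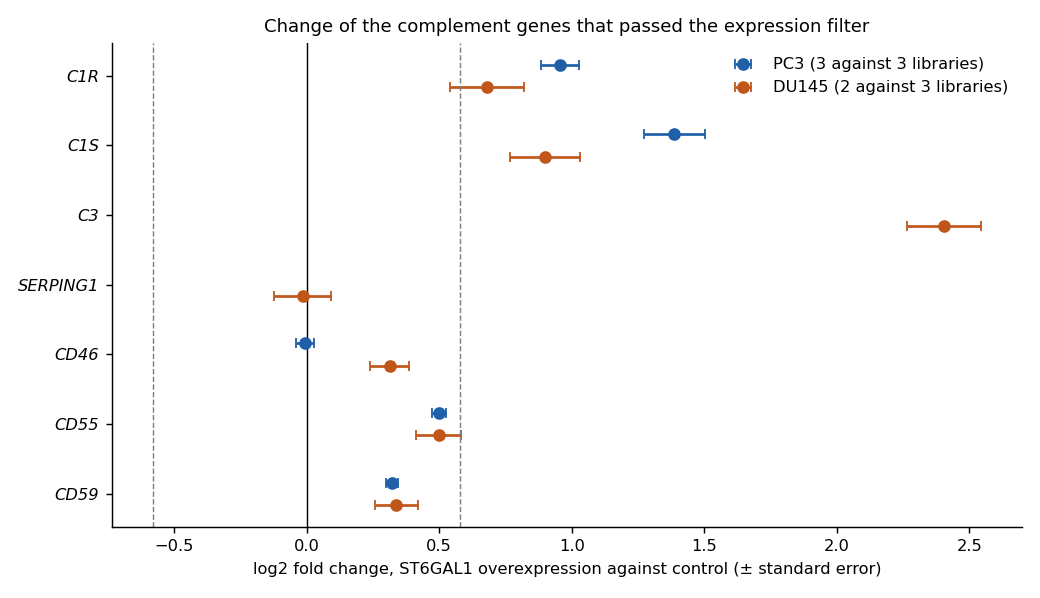
Log2 fold change with ST6GAL1 overexpression (horizontal axis) for the 7 complement genes that passed the expression filter in either line. Points are edgeR estimates and whiskers are standard errors, and dashed lines mark the fold threshold of 0.58. C3 in DU145 lies at 2.40, C1R and C1S lie right of the threshold in both lines, and CD55 and CD59 lie at nearly the same place in both lines.

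Whether the lines responded differently was asked with an interaction term in 1 model of the 11 libraries, in which 8.72% of 14952 tested genes were called and 19.7% had an adjusted p under 0.05. Of the 7 complement genes tested, 0 were called by edgeR, limma-voom or DESeq2. An unadjusted p under 0.05 was found for 2 (C1S and CD46, edgeR), and at least 19.7% of all tested genes had one too. An adjusted p under 0.05 was found for 1 gene. That gene was CD46, with a change in DU145 exceeding that in PC3 by 0.31 on the log2 scale (SE 0.0768, adjusted p = 0.00639). For CD55 the difference was -0.01 (95% interval -0.17 to 0.16, adjusted p = 0.999) and for CD59 it was 0.01 (95% interval -0.16 to 0.18, adjusted p = 0.980). For C1R the difference was -0.28 (95% interval -0.58 to 0.02, adjusted p = 0.186), and for C3, read at few counts in PC3, it was 1.10 (95% interval -0.23 to 2.44, adjusted p = 0.252). For C1S it was -0.50 (SE 0.211, adjusted p = 0.117). It passed both thresholds, towards a smaller change in DU145, without DU145 control replicate 3 (-0.60, adjusted p = 0.0468) or DU145 overexpression replicate 2 (-0.68, adjusted p = 0.00777). The 95% intervals are not adjusted for the number of genes.

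The control cells of the 2 lines were also compared. Of the 7 complement genes tested, all 7 had an adjusted p under 0.05 between DU145 and PC3 controls, which 88.2% of all tested genes had. Of these, 5 were called, 3 higher and 2 lower in DU145, against 31.8% and 32.8% of all tested genes. C3 and SERPING1 passed the filter only through the DU145 controls, where they were high, and such genes must differ. These counts thus describe the tested genes only. With at least 10 counts in every library, 1 complement gene was called higher. The line and the set of libraries it came with cannot be told apart. DU145 controls had more C3, with summed counts of 184 against 8 (ratio 25.4, exact 95% counting interval 12.6 to 59.8), and more SERPING1, with 1223 against 4 (ratio 338, interval 132 to 1242). C1S was higher in DU145 by 1.94 on the log2 scale (SE 0.119, adjusted p = 1.31e-14, edgeR). CD55 and CD59 were lower in DU145, by log2 fold changes of -2.87 and -2.02 (adjusted p of 1.10e-27 and 2.20e-23, edgeR). C1R (-0.45, adjusted p = 0.000132) and CD46 (0.43, adjusted p = 1.78e-09) were on either side of 0 and under the fold threshold. PC3 control cells thus had the higher levels of CD55 and CD59, and DU145 control cells those of C3, C1S and SERPING1.

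**Figure D3:**
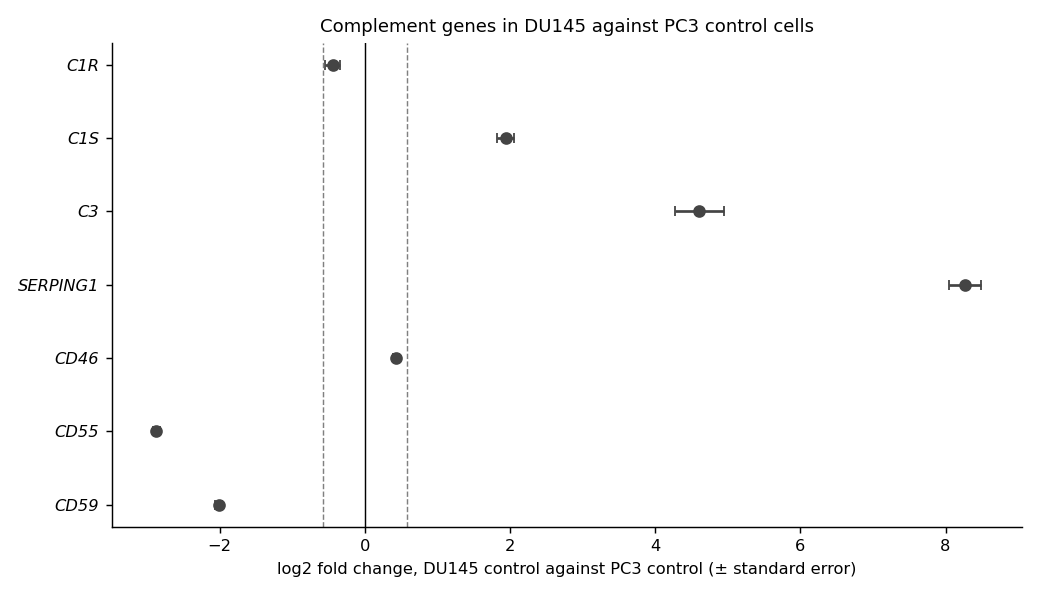
Log2 fold change of the 7 tested complement genes in DU145 control against PC3 control cells (horizontal axis, n = 3 libraries each), with standard errors as whiskers and dashed lines at the fold threshold of 0.58. CD55 and CD59 lie at -2.87 and -2.02, and C1S, C3 and SERPING1 lie at 1.94 and above.

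Levels of different genes were compared as normalized CPM per kb of merged exon. In the PC3 controls CD59 (69.6 ± 1.06, SD, n = 3) was above CD55 (44.1 ± 0.314), CD46 (12.0 ± 0.593), C1R (2.47 ± 0.145) and C1S (0.636 ± 0.0949), with no overlap between neighbours in this order. C3, SERPING1 and CFI followed at under 0.03, and neighbours among them overlapped. In the DU145 controls CD59 (17.1 ± 1.29) and CD46 (16.0 ± 0.308) overlapped and stood above CD55 (5.98 ± 0.0742), SERPING1 (3.79 ± 0.359), C1S (2.40 ± 0.314), C1R (1.79 ± 0.144), C3 (0.357 ± 0.0269) and CFI (0.0471 ± 0.0105). With ST6GAL1 overexpression the order in PC3 was kept among the genes above C3. In DU145 C1S (4.49 ± 0.750, n = 2) moved above SERPING1 (3.75 ± 0.0778), and C3 reached 1.90 ± 0.171. With the length of 1 canonical transcript, an alternative chosen after the data were seen, CD55 came first in PC3 and CD46 in DU145. By that length, SERPING1 (14.6 to 15.0) and C1S (12.3 to 15.5) overlapped in DU145 with overexpression. In every group the 3 membrane regulators stood above C1R, C1S, C3, SERPING1 and CFI by either length, and CFB was given no place in this order.

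The rest of the pathway was described with a list of 50 other complement genes, among them components, regulators and receptors. Of these, 14 were listed at 0 in all libraries, among them C2, C4A and C4B of the chromosome 6 stretch without a level, and 37 were tested in neither line. In PC3, 7 were tested and 1 was called, higher, where 3.61% of all tested genes were called higher and 1.76% lower. In DU145, 11 were tested and 3 were called, all lower, where 4.61% of all tested genes were called lower. Among the called genes, SUSD4 and ITGAX passed the filter only through the DU145 controls, where they were high. A call of such genes could only be lower, so these counts describe the tested genes only.

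Clusterin (CLU), a secreted chaperone that also binds the terminal complex, was read at 89.3, 92.7 and 99.2 normalized CPM in the PC3 controls and at 199, 198 and 195 with overexpression. It rose by a log2 fold change of 1.08 in PC3 (SE 0.0350, adjusted p = 1.11e-26, edgeR), while in DU145 it was 0.11 (adjusted p = 0.343), where its 50 neighbours on chromosome 8 had a median of -0.35. C5, the source of the anaphylatoxin C5a, rose by 0.50 in PC3 (adjusted p = 2.04e-09, edgeR), under the fold threshold. SUSD4, a membrane protein that inhibits complement, fell in DU145 from 2.15 ± 0.256 in the controls to 0.389 ± 0.00121 normalized CPM (SD), a log2 fold change of -2.45 (adjusted p = 0.000245, edgeR). ITGB2 and ITGAX, integrin subunits of the iC3b receptors, were called lower in DU145. ITGB2 fell from 65.7 ± 1.47 to 36.6 ± 9.54, a log2 fold change of -0.84 (adjusted p = 0.00317, edgeR), and in PC3 by -0.55 (adjusted p = 2.79e-06), under the fold threshold, which it passed without PC3 control replicate 3 (-0.593) or PC3 overexpression replicate 2 (-0.587). ITGAX had counts of 16, 21 and 13 against 7 and 6, and its call (-1.51, adjusted p = 0.0217, edgeR) was lost with DESeq2 (adjusted p = 0.128) and without DU145 control replicate 1 or 2 or overexpression replicate 3. Vitronectin (VTN), which binds the terminal complex, rose in DU145 by 0.56 (adjusted p = 0.0418, edgeR), under the fold threshold, and did not pass with limma-voom (adjusted p = 0.0516) or DESeq2 (adjusted p = 0.215). Its adjusted p was 0.104 to 0.157 with any 1 of 4 DU145 libraries left out, and it passed both thresholds (0.62, adjusted p = 0.0353) without DU145 overexpression replicate 3.

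**Figure D4:**
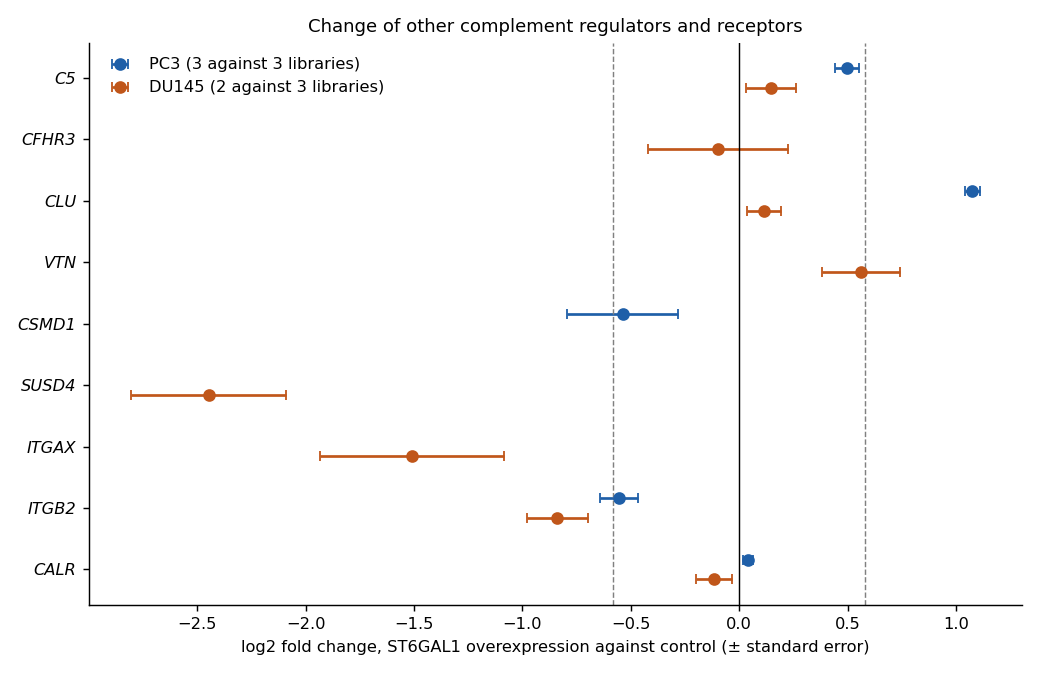
Log2 fold change with ST6GAL1 overexpression (horizontal axis) for other complement genes that were called in either line or between the control cells. Points are edgeR estimates with standard errors as whiskers, shown where the gene passed the filter, and dashed lines mark the fold threshold of 0.58. CLU lies right of the threshold in PC3, and SUSD4, ITGAX and ITGB2 lie left of it in DU145.

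Between the control cells, 10 of the 50 were tested, with 6 called higher and 3 lower in DU145, where 31.8% of all tested genes were called higher and 32.8% lower. Among the called genes, VTN, SUSD4, ITGAX, CFHR3 and CSMD1 passed the filter only through the line in which they were high. Such genes must differ, so these counts describe the tested genes only. DU145 controls had more CLU (log2 fold change 2.33), ITGB2 (log2 fold change 2.21) and CFHR3 (summed counts of 57 against 3, ratio 21.0, exact 95% counting interval 6.83 to 104.8). VTN, SUSD4 and ITGAX were at 0 counts in every PC3 control library and at least 18.1-fold, 11.7-fold and 6.08-fold higher in DU145, taking 3 counts per library as the floor. CSMD1, a membrane inhibitor of complement, was at 0 in DU145 and at least 8.96-fold higher in PC3. C5 (-1.11) and CALR (-0.59), which binds C1q, were lower in DU145. The call of CALR was lost by the fold threshold without DU145 control replicate 1 or 3 (-0.58 and -0.55).

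Genes with the most similar pattern were found by the Pearson correlation of log2 CPM over the 11 libraries after the mean of each line was subtracted, among 9812 genes. The points share libraries and the ST6GAL1 contrast, so these values are descriptions, and 137 to 194 genes had an r over 0.9 with each complement gene. C1R was most like PARP9 (r = 0.99) and ITPR1 (r = 0.99), and C1S was most like C1R itself (r = 0.974) and LMO4 (r = 0.973). CD55 was closest to ALDH3A2 (r = 0.99) and PLCB1 (r = 0.988), and CD59 to PYGL (r = 0.99) and LMO4 (r = 0.987). CD46 was closest to CLMP (r = 0.962) and ARPIN (r = 0.961), both of which passed the test in DU145 alone (log2 fold changes of 0.44 and 0.43 there, against 0.03 and 0.04 in PC3).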

How the data were processed

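RNA-Seq was carried out by the authors on PC3 and DU145 cells. Per the labels and the paper's methods, polyA libraries (TruSeq Stranded mRNA) were sequenced as single reads, trimmed (Cutadapt), aligned to hg38 (HISAT2) and assigned to genes (featureCounts). The raw counts were deposited by Entrez identifier, without normalization, for 28395 genes, of which 97.7% matched RefSeq. The annotation and strand setting of the counting are not given in the sources used here, so a gene and a partner that overlaps it cannot be separated. Totals were 13194485 to 18201359 counts per library.

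Each line was fitted with edgeR 4.0.16 in R 4.3.3 (filterByExpr, TMM, robust quasi-likelihood test, Benjamini-Hochberg adjustment), on 13544 genes in PC3 and 13676 in DU145. The interaction was fitted on 14952 genes and the control cells on 14246. SE were taken as the size of the log2 fold change over the root of F. Calls needed an adjusted p under 0.05 and a log2 fold change above 0.58 in size, the thresholds of the study. Ratios of summed low counts have exact binomial intervals at a level of 0.95. The scripts were tested on simulated data. Coordinates are those of RefSeq on GRCh38.p14. Alternatives were limma-voom (limma 3.58.1), DESeq2 1.42.0, RLE factors, no filter, at least 10 counts in every library, the replicate number as a block, each library left out and no fold threshold.

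The 9 genes, the lists and the alternatives were chosen with earlier results of these data known. Named genes were the 9, ST6GAL1, called genes of the 50 other complement genes, and the 2 genes most similar to each member tested in both lines, among genes with a mean of at least 10 CPM. DU145 overexpression is represented by 2 libraries. No replicate pair differed by less than the sampling noise, and the 2 DU145 overexpression libraries differed most. Of the list of other complement genes, 1 more gene is not reported here.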

Additional observations from a re-analysis of the deposited data

Results flagged for a closer look

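By edgeR's interaction test, 4 of 20 tested complement genes (20%) had an adjusted p under 0.05 for a difference between PC3 and DU145, a share close to the 19.7% of all tested genes, and so did ST6GAL1 itself. Taken as DU145 less PC3 on the log2 scale, the difference for CD46 was 0.31 (adjusted p = 0.00639), with both DU145 overexpression libraries above every control and overlapping groups in PC3. For CLU it was -0.97 (adjusted p = 3.37e-08), from a rise in PC3 that DU145 did not show at the threshold. C5 had a difference of -0.36 (adjusted p = 0.0446), which is under the fold threshold and whose adjusted p rose above 0.05 in 7 of the 11 fits with a library removed (up to 0.120), with limma-voom (0.0597) and with DESeq2 (0.0821). SUSD4 had a fitted difference of -7.48 (adjusted p = 0.000440), a value that depends on the prior count because the PC3 controls were all at 0. ST6GAL1 itself differed by 1.06 (adjusted p = 0.000286), with a larger rise in DU145.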

How the results depend on the processing

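Without a fold threshold, 5056 genes were called in PC3 (2548 higher, 2508 lower, with 4 of the 9 complement genes higher), 2747 in DU145 (1459 higher, 1288 lower, with 6) and 2949 in the interaction (1549 higher, 1400 lower, with 1). With at least 10 counts in every library, 1 complement gene instead of 3 was called higher in DU145 controls, since C3 and SERPING1 were no longer tested. With each library left out, the genes called ranged from 830 to 2072 in DU145 (lower: 432 to 1398) and from 1148 to 2270 in the interaction (lower: 588 to 1637), the highest without DU145 overexpression replicate 3, and where a single library was left in a group it was assumed to vary like the others. The complement genes called higher in DU145 ranged from 2 to 5, and those called lower in the interaction from 0 to 1 (C1S). Changes close to 0 took either sign: CD46 in PC3 from -0.046 to 0.024, SERPING1 in DU145 from -0.10 to 0.012, CFHR3 in DU145 from -0.36 to 0.15 and in the interaction from -1.27 to 0.023, and the interaction of CD55 from -0.125 to 0.088 and of CD59 from -0.064 to 0.062.

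Whether the replicate numbers pair the libraries could not be settled. Deviations of same-numbered libraries correlated at 0.0173, 0.109 and 0.0092 in PC3, and those of differently numbered ones at -0.0733 to 0.0544. In DU145, same-numbered libraries correlated at 0.195 and 0.51, and only 2 such pairs exist. The 2 DU145 overexpression libraries mirror each other (0.434 and -0.434 with control replicate 1), so these values cannot decide. With the replicate number as a block, 740 genes were called in PC3, 1517 in DU145 and 1452 in the interaction, with 2, 3 and 0 of the complement genes, and SERPING1 (0.02) and CFHR3 (0.0059) in DU145 changed sign without passing the threshold. Under this block the interactions of C1S (-0.43, adjusted p = 0.0307) and CALR (-0.16, adjusted p = 0.0223) came under an adjusted p of 0.05, short of the fold threshold, and the interaction of C5 (adjusted p = 0.0723) and the change of VTN in DU145 (adjusted p = 0.0731) no longer did. The cause of these shifts was not tested.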

Other observations

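In 4 further complement genes with few counts, the exact 95% counting interval of the ratio of summed counts did not include 1, and they were chosen after their values were seen and were not tested in the line named. In PC3, CFD, which cleaves factor B, had 11 summed counts in the controls and 2 with overexpression (ratio 0.183, interval 0.0197 to 0.839). C7, a component of the membrane attack complex, had 6 and 19 (ratio 3.19, interval 1.23 to 9.76). SUSD4 had 0 and 12, the latter as counts of 2, 2 and 8, so most came from overexpression replicate 3. In DU145, ITGAM, an integrin subunit of an iC3b receptor, had counts of 3, 2 and 8 in the controls and 0 in both overexpression libraries (upper bound of the ratio 0.436). These intervals cover counting error only and take no account of the spread between libraries. They were picked from the ratios of all low-count complement genes in either line and are not adjusted for that number.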
